A study of Mus musculus with 3 samples.

Results

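The genes described here encode the building blocks of the spliceosome and the SR proteins that steer it. They are 48 of the 21951 protein-coding genes in the GENCODE M21 annotation, listed by symbol and grouped by role into 7 classes: 12 SR and Tra2 protein genes, 3 genes for branch point and 3′ splice site recognition, 3 genes of U1 snRNP, 10 of U2 snRNP, 7 of the Sm core, 6 of the U4/U6.U5 tri-snRNP and the Prp19 complex, and 7 of the U6 Lsm ring. The rule uses no measured value, although the genes were listed with earlier results of these data known, and all 48 symbols were found in the annotation.

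The spliceosome removes introns from pre-mRNA. U1 snRNP pairs with the 5′ splice site, Sf1 and U2af mark the branch point and the 3′ splice site, U2 snRNP then takes the branch point, and the tri-snRNP brings the catalytic RNAs, while SR proteins bind exons and recruit these factors. NF-Y is a trimer of NF-YA, NF-YB and NF-YC that binds the CCAAT box, and H3K4me3 is the histone mark of active and poised promoters. Neural progenitors of the embryonic cortex splice many transcripts differently from the neurons they produce.

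The samples were E13.5 mouse brain cortices, fixed with formaldehyde and sonicated. One library each was made from the input chromatin without antibody, from the NF-Y-ChIP with an antibody against NF-YC, and from the H3K4me3-ChIP. The labels name no genotype, strain or treatment and do not say how many embryos were pooled. The peak lists of both ChIPs were compared to ask which of these promoters carried the mark and which of them also bound NF-Y.

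With 1 library per antibody there was no replicate error and no test between samples, and the depth of the libraries is unknown because the lists hold no read counts. The cortex was used as whole tissue, so a peak present in part of the cells and a weaker peak in all of them cannot be told apart. As a check of the tissue, all 7 genes taken as cortical markers had an H3K4me3-ChIP peak at a transcription start site (TSS), from 8.79-fold at Neurod1 to 50.6-fold at Tubb3, and the 3 genes of other tissues (Alb, Ins2 and Gata1) had none.

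Of the 48 genes, 3 had a TSS with an NF-Y-ChIP summit at most 1 kb away, or 6.25% (exact 95% interval 1.31 to 17.2%). They were Srsf5, Sf1 and Sf3b2, a gene of SR proteins, one of branch point recognition and one of U2 snRNP. Among all 13767 protein-coding genes whose promoter was marked, meaning that an H3K4me3-ChIP peak lay within 1 kb of a TSS, the share was 5.03%, which is inside that interval. The 48 genes include Sf3b5, which was not marked. Over all 21951 protein-coding genes, marked or not, the share was 3.17%, also inside the interval. No gene of U1 snRNP, of the Sm core, of the tri-snRNP and Prp19 class or of the Lsm ring had such a summit. The intervals cover counting error only, and with 3 to 7 genes in these classes a count of 0 still allows a share of up to 70.8% in the smallest of them and 41.0% in the largest.

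The summits differed in strength. At Sf1, which encodes the protein that binds the branch point, the peak spanned chr19:6363686-6363932 of mm10 (GRCm38) and its fold enrichment over the local background was 7.42. It held rank 289 of the 733 NF-Y-ChIP peaks, so that 60.3% of the peaks in the list were lower, and its q-value was 2.76e-07. The summit lay in an untranslated exon of Sf1, 18 bp downstream of the nearest TSS and 138 bp downstream of the 5′ end of the gene. At Sf3b2, a subunit of the SF3B complex that holds the branch point in U2 snRNP, the peak at chr19:5295386-5295568 was 4.17-fold enriched, ranked 673 and had a q-value of 0.00342. The summit sat 19 bp before the TSS, in intergenic sequence. At Srsf5, an SR protein gene, the peak at chr12:80946175-80946390 was the weakest of these, with 3.02-fold enrichment at rank 722. It passed the p-value limit of the list with 7.14e-05, but its q-value was 0.899, one of 37 peaks in the list whose q-value was not under 0.05.

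Only the Sf1 peak exceeded the list's median of 6.75-fold, while the whole list ran from 1.46-fold to 53.1-fold. The Srsf5 summit lay inside the gene, in an intron 726 bp downstream of its 5′ end, and 146 bp upstream of the start of the transcript Srsf5-209. All 3 summits also lay within 1 kb of the TSS of a noncoding transcript, namely the antisense transcript Gm14966 at Sf1 (69 bp upstream), AC125059.3 antisense to Sf3b2 (278 bp downstream) and Gm20337 at Srsf5 (834 bp upstream). No other protein-coding gene started within 1 kb of them.

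**Figure D1:**
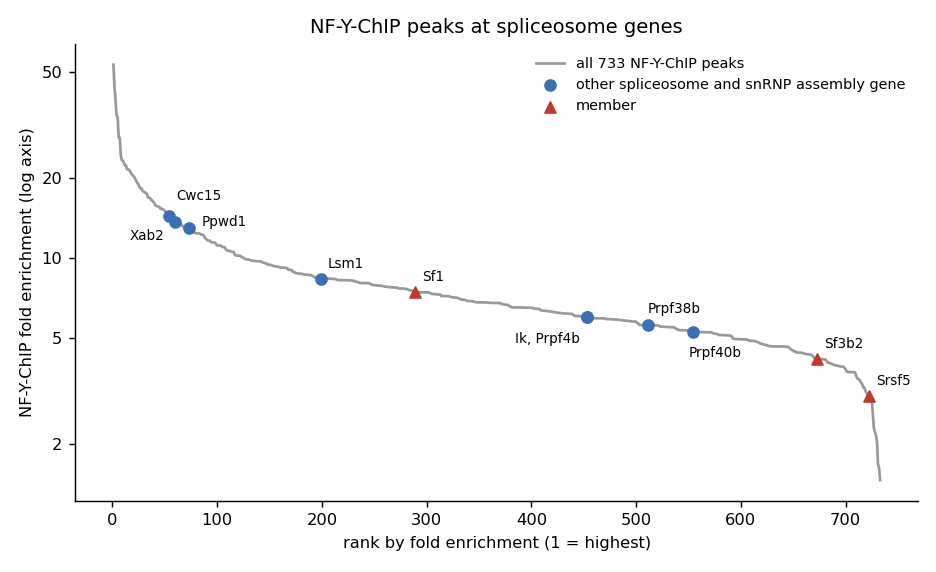
NF-Y-ChIP fold enrichment (log axis) of all 733 peaks by rank (grey line), with the peaks at Sf1, Sf3b2 and Srsf5 as red triangles and those at 8 other spliceosome and snRNP assembly genes as blue circles. Sf3b2 and Srsf5 sit at ranks 673 and 722, near the low end of the list.

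Each of the 3 peaks held the CCAAT box or its reverse complement ATTGG within 50 bp of the summit, as did 88.1% of all NF-Y-ChIP peaks. The Srsf5 and Sf3b2 peaks had 1 such motif, 14 bp and 21 bp from the summit, and the Sf1 peak had 3, the nearest 10 bp away. The sequences are from the RefSeq copy of GRCm38, 5′ to 3′ on the strand of the gene, with the motif in capitals, and are shown because they are the motifs under the only NF-Y-ChIP peaks at these genes.
Srsf5 chr12:80946202-80946230, plus strand: cggccggctgctATTGGaccaggcctggc
Sf1 chr19:6363767-6363795, plus strand: ctaacggttcggCCAATcccgacccatat
Sf1 chr19:6363804-6363832, plus strand: gccagtgctccaCCAATcggaggccgctg
Sf1 chr19:6363845-6363873, plus strand: cctcgggccggcCCAATccaggccgcggc
Sf3b2 chr19:5295481-5295509, minus strand: accaagttctctCCAATcaccgcgggacg
In the Sf1 peak all 3 motifs have the same orientation, and in Srsf5 the motif is on the opposite strand to the gene. A longer form of the NF-Y motif asks for a pair of purines before CCAAT and for C or G and then a purine after it. None of the 3 peaks contained this form within 50 bp of the summit, whereas 62.6% of all NF-Y-ChIP peaks did.

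The remaining 45 genes had no NF-Y-ChIP summit nearby. The nearest to any of their TSSs was 10585 bp from Srsf10, near the start of Pnrc2 with 6.57-fold enrichment, and the median distance was 453575 bp. None was within 5 kb, and 6 of the 45 genes (Srsf10, Snrpd2, Prpf8, Prpf3, Sf3a3 and Tra2a) had one within 50 kb. The same distances were not computed for all marked genes, so these counts cannot be called low or high.

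Several of these promoters held the CCAAT box. In the window from 250 bp upstream to 50 bp downstream of the 5′ end of the gene, 17 of the 44 marked genes without a summit (38.6%) held CCAAT or ATTGG. The share over all marked protein-coding genes without a summit was 35.9%, so the spliceosome genes were near the background. Of 22 motifs, 20 began upstream of the 5′ end, but the window holds 250 bp upstream and only 50 bp downstream. No preference for one side can be read from this count. Most of these genes (14) had 1 motif. Snrpc, Snrpf and Prpf8 had more, and Srsf2, Srsf3, Prpf31, Prpf19 and Lsm5 had 1 motif between 104 and 19 bp upstream. That range held the middle 50% of the 632 NF-Y-ChIP summits within 1 kb of any annotated TSS, noncoding transcripts included. Snrpf encodes a subunit of the Sm ring, Prpf8 the scaffold at the centre of U5 snRNP, and Prpf31 a protein of U4 snRNP. Their sequences are shown, again on the strand of the gene, as promoters that carried the motif without an NF-Y-ChIP summit, leaving out Snrpc, whose annotated 5′ end lay outside its H3K4me3-ChIP peak.
Snrpf chr10:93589696-93589724, minus strand: cgtctttggtggCCAATcacagaagccga
Snrpf chr10:93589722-93589750, minus strand: ccgccatcccctCCAATcagtaaacacgt
Snrpf chr10:93589815-93589843, minus strand: cgaagcaaagacATTGGggtcgctcaatc
Prpf8 chr11:75486586-75486614, plus strand: caatatcaatagCCAATtaaatgtcagat
Prpf8 chr11:75486722-75486750, plus strand: gctgcaacgtcaATTGGagatgtcgctaa
Prpf8 chr11:75486762-75486790, plus strand: atctcggcgtctATTGGatgagcttctga
Srsf2 chr11:116853160-116853188, minus strand: cggccgaatgggCCAATcaggagattcat
Srsf3 chr17:29032590-29032618, plus strand: gcgccgcctctgATTGGgtgatctggtca
Prpf31 chr7:3629941-3629969, plus strand: tgtcgtaaacggCCAATcaaaacacagat
Prpf19 chr19:10895166-10895194, plus strand: gaagaagccgagCCAATgcggaaacagcc
Lsm5 chr6:56704776-56704804, minus strand: tgtctgcgatccATTGGgatcctctggat
The first bases of the motifs were 6, 32 and 125 bp upstream of the 5′ end in Snrpf, and 218, 82 and 42 bp upstream in Prpf8. The longer form of the motif occurred in the promoter window of 4 of the 44 marked genes without a summit (9.09%), namely Srsf2, Snrpd2, Snrpf and Prpf31. Over all marked protein-coding genes without a summit the share was 12.1%.

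**Figure D2:**
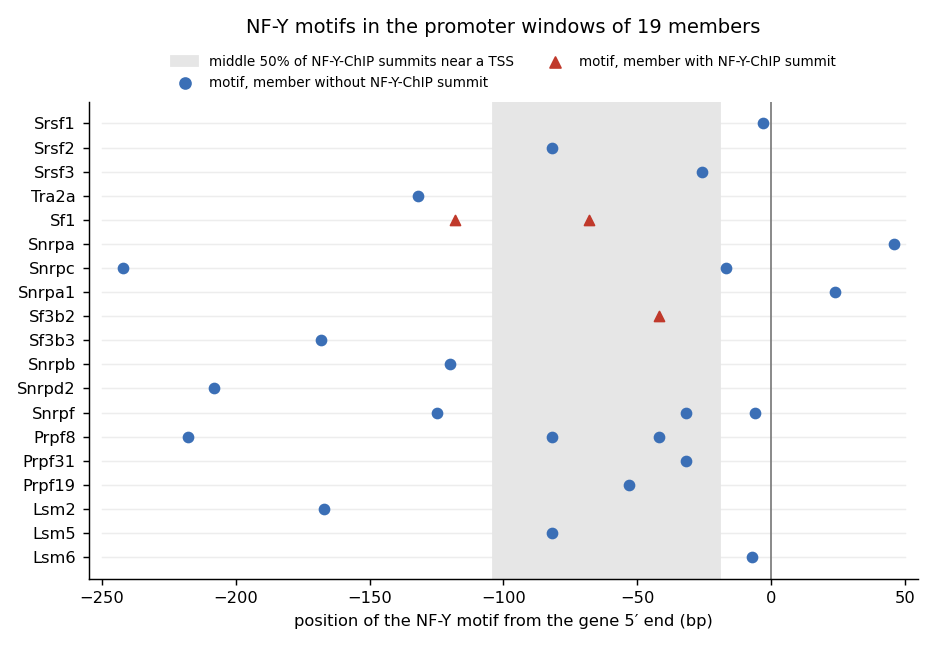
Position of CCAAT boxes, in bp from the 5′ end of the gene, in the promoter windows of the 19 members that held one. Blue circles are genes without an NF-Y-ChIP summit, and red triangles are Sf1 (both motifs upstream of its NF-Y-ChIP peak) and Sf3b2. The grey band from 104 to 19 bp upstream held the middle 50% of the 632 NF-Y-ChIP summits within 1 kb of any annotated TSS. Of the 17 genes without a summit, 7 have a motif inside the band, a share that was not computed for all marked genes.

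Among all marked protein-coding genes the share with a summit was higher with more motifs in this window, from 1.57% with none and 4.44% with 1 to 21.5% with 2 or more and 34.0% with 3 or more. In the spliceosome genes the counts were 1 of 28, 1 of 15, 1 of 4 and 0 of 2. The gene with a summit and no motif in the window was Srsf5, whose summit lay outside the window. The summit at Sf1, 138 bp downstream of the 5′ end, lay outside it too, and the 2 motifs for which Sf1 is counted here are upstream of its NF-Y-ChIP peak and are not those shown under the peak. Snrpf and Prpf8 each had 3 motifs and no summit, as did 420 of the 636 marked genes with 3 or more. These windows depend on the annotation. The 5′ end lay inside an H3K4me3-ChIP peak in 44 of the 48 genes, against 86.0% of all marked genes. The exceptions were Snrpc, Snrpa1, Sf3b5 and Lsm4. For Lsm4 the 5′ end at position 70673248 only just missed the peak, which started at 70673256. The RefSeq start of Snrpc was 1878 bp and that of Snrpa1 1333 bp downstream of the GENCODE start. With the RefSeq promoter windows, which were at hand for 39 of the genes without a summit, 16 held a motif (41.0%, against 40.1% of all marked genes without a summit that have such a window), 12 of them in both annotations.

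H3K4me3 was present at nearly all of these promoters. A peak lay within 1 kb of a TSS in 47 of the 48 genes (97.9%), against 62.7% of all protein-coding genes. The exception was Sf3b5, the small subunit of SF3B. Its single annotated TSS was at chr10:13005343, and the nearest H3K4me3-ChIP peak, chr10:13007912-13009371 with 51.2-fold enrichment, started 2569 bp downstream of it. The RefSeq start of Sf3b5, at position 13008450, lay inside that peak. The 47 genes had a median fold enrichment of 47.3 (order-statistic 95% interval of the median 39.6 to 58.7, taken over genes, which are not replicates), with the middle 50% between 37.7 and 65.4. Over all marked genes the median was 39.9 and the middle 50% ran from 25.7 to 52.7. Of the 47 genes, 30 were above the median of all marked genes. The interval of the median includes the value of all marked genes.

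Among the SR and Tra2 genes the fold enrichment ran from 24.1 to 77.2 with a median of 54.9, and 10 of 12 exceeded the median of all marked genes. Srsf7 was highest at 77.2, followed by Tra2a at 74.7, Srsf6 at 69.4 and Tra2b at 66.1. The values were 59.6 for Srsf5, 59.4 for Srsf10, 50.5 for Srsf4, 43.2 for Srsf2, 41.8 for Srsf1 and 40.9 for Srsf11. Srsf9 at 37.9 and Srsf3 at 24.1 were below the median of all marked genes. Srsf1 and Srsf2 bind exonic enhancers and promote exon inclusion, and Tra2a and Tra2b are their relatives that bind purine-rich enhancers.

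The peaks of the SR class were wide. All 12 genes had a peak wider than the median of 1404 bp over marked genes, and 10 of 12 were wider than its upper quartile of 1863.5 bp. The median width of the class was 2432 bp, with a range from 1644 to 3653 bp. Srsf2 had the widest peak at chr11:116850845-116854497, which is wider than those of 98.3% of marked genes, and Srsf3 came next with 3366 bp. Srsf3, which also acts in mRNA export, had the lowest fold enrichment of all 47 genes. Srsf10 reached 2974 bp, Tra2b 2782 bp and Srsf1 2767 bp. The peaks at Srsf5 (1765 bp) and Srsf11 (1644 bp) were the narrowest. In Srsf11 the stronger peak lay at an internal TSS, and a second peak of 1544 bp with 23.9-fold enrichment held the RefSeq start of the gene. With the widths of both peaks added, 11 of the 12 genes were above the upper quartile of such sums. Such widths were not particular to SR genes. The hnRNP genes, whose products often oppose SR proteins at exons, had a median width of 2663.5 bp, and 16 of 20 were above the upper quartile. The width of the SR class was picked out after the values were seen, from 1 library, and has no test.

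**Figure D3:**
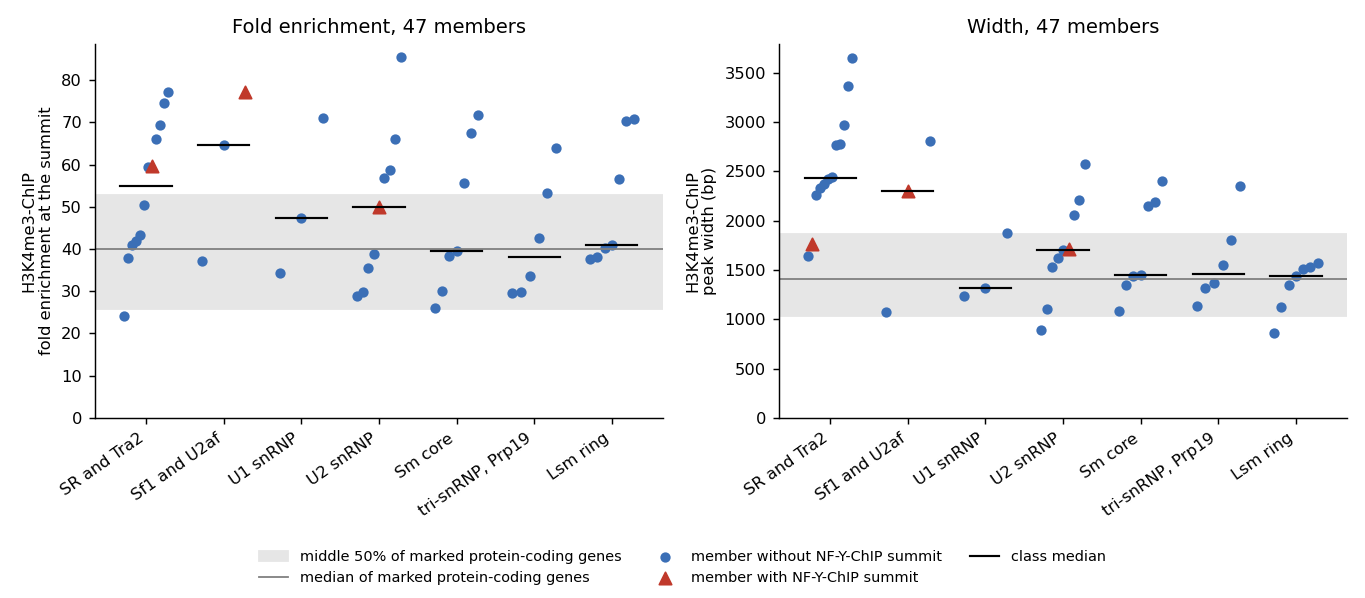
H3K4me3-ChIP fold enrichment (left) and peak width in bp (right) of the strongest peak within 1 kb of a TSS, for the 47 members with one, by class. Points are genes, red triangles are Sf1, Sf3b2 and Srsf5, black bars are class medians, and the grey band and line are the middle 50% and the median of all marked protein-coding genes. The SR and Tra2 class has a median width of 2432 bp, above the grey band.

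For branch point and 3′ splice site recognition, Sf1 had 77.2-fold enrichment over 2303 bp and U2af1, which reads the AG at the intron end, 64.6-fold over 1077 bp. That peak did not reach the 5′ end of U2af1, which lay in a second, 12.7-fold peak of 408 bp together with the RefSeq start. U2af2, which binds the polypyrimidine tract, had 37.2-fold over 2804 bp. Among the U1 snRNP genes, whose products stabilise U1 RNA at the 5′ splice site, Snrpc had 70.9-fold, Snrnp70 47.3-fold and Snrpa, which binds a stem-loop of U1 RNA, 34.3-fold, with widths of 1241, 1322 and 1875 bp. The U2 snRNP genes ran from 28.8-fold to 85.5-fold. Snrpb2, an RNA-binding protein of that particle, had the highest fold enrichment of all 47 genes at 85.5, above 99.8% of marked genes, in a peak of 1102 bp. Its partner protein in U2 snRNP, Snrpa1, had 35.4-fold. Within the SF3A complex Sf3a2 had 58.7-fold while Sf3a1 and Sf3a3 had 28.8-fold and 29.8-fold. Within SF3B the values were 66.1 for Sf3b4, 56.9 for Sf3b3, 49.97 for Sf3b2 and 38.8 for Sf3b1, the subunit that clamps the branch point.

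The Sm core genes, whose products form the ring on U1, U2, U4 and U5 RNAs, had a median of 39.6-fold, close to that of all marked genes. Snrpg was highest at 71.8 and Snrpb followed at 67.4, while Snrpf was lowest at 26.1, below Snrpd1 at 29.98. Snrpd3 had 55.6-fold, Snrpd2 39.6-fold and Snrpe 38.4-fold. The tri-snRNP and Prp19 genes had the lowest class median, 38.1. Prpf19, the ubiquitin ligase of the complex named after it, had 63.96-fold and Prpf6, which bridges U5 to U4/U6, 53.2-fold. That peak of Prpf6 held the GENCODE 5′ end of the gene. The RefSeq start of Prpf6, 9451 bp downstream, lay in a second peak of 1300 bp with 39.9-fold enrichment. Prpf8 had 33.6-fold and Prpf31 29.9-fold. Prpf4 and Prpf3, partners on the U4/U6 duplex, had 42.7-fold and 29.5-fold. The Lsm ring genes, whose products bind the 3′ end of U6 RNA, had the higher values at Lsm2 (70.7), Lsm8 (70.3) and Lsm7 (56.5) and lower ones at Lsm5 (40.9), Lsm4 (40.2), Lsm6 (38.2) and Lsm3 (37.6). Their peaks ranged from 859 bp at Lsm4 to 1574 bp at Lsm3, and none of 7 exceeded the upper quartile of marked genes. In the other classes this was 2 of 3 for branch point and 3′ splice site recognition, 1 of 3 for U1 snRNP, 3 of 9 for U2 snRNP, 3 of 7 for the Sm core and 1 of 6 for the tri-snRNP and Prp19 genes.

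The class medians ran from 38.1 to 64.6, a narrower range than that of the genes within U2 snRNP. The summit of the H3K4me3-ChIP peak lay downstream of the nearest TSS in 42 of 47 genes (89.4%), against 76.5% of all marked genes. The median signed distance, with upstream summits counted as negative, was 154 bp over the 47 genes and 122 bp over all marked genes. The genes with an NF-Y-ChIP summit had 49.97-fold (Sf3b2), 59.6-fold (Srsf5) and 77.2-fold (Sf1), within the range of 24.1 to 85.5 of the 44 genes without one, whose median was 43.0. Over all marked genes the medians were 46.7-fold with a summit and 39.4-fold without.

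Many of these promoters are shared. In 14 of the 47 marked genes (29.8%) another protein-coding gene started within 1 kb on the opposite strand, against 18.6% of all marked genes and 29.7% of the other spliceosome and snRNP assembly genes. The closest pairs were Sf3a2 with Plekhj1 (4 bp between the start sites), Snrpa with BC024978 (21 bp), Srsf11 with Lrrc40 (23 bp), Lsm3 with Xpc (40 bp) and Snrpd3 with Gucd1 (42 bp). Prpf31 with Tfpt, Sf3a1 with Ccdc157 and Lsm7 with Sppl2b followed at 56, 57 and 66 bp. The pairs of Sf3b3 with Cog4, Srsf7 with Ttc39d, Prpf4 with Cdc26, Srsf2 with Mfsd11, Snrpd2 with Qpctl and Prpf6 with Zfp512b were 127 to 890 bp apart. None of the 14 had an NF-Y-ChIP summit, and the 3 genes with a summit were among the other 33. Among the other spliceosome and snRNP assembly genes, 7 of the 30 with a partner (23.3%) had a summit. Over all marked genes 7.40% of those with such a partner and 4.48% of those without had a summit. A partner also went with a wider H3K4me3-ChIP peak, with a median of 2013 bp in the 14 genes and 1510 bp in the other 33, and of 1695 and 1336 bp over all marked genes. Within the SR class the 3 genes with a partner had a median of 2425 bp and the 9 without one 2439 bp.

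The promoter windows of the 47 genes had a median GC content of 58.5%, against 60.1% for all marked genes, and a ratio of observed to expected CpG of 0.865 against 0.736. Motifs of other promoter factors were searched on both strands in the same windows, with letters chosen after other results were known, and matches of different motifs may overlap. CCGGAAG, a core that ETS factors bind, occurred in 15 of 47 (31.9%) and in 15.7% of all marked genes. TGCGCA, which occurs in the palindromic NRF1 motif, occurred in 14 (29.8%) against 13.4%. GGGCGG, the GC box, occurred in 30 (63.8%) against 61.6%, with 10 of 12 SR and Tra2 genes and none of the 6 tri-snRNP and Prp19 genes. TATAAA was found in 5 (10.6%) against 7.26%, and AAGATGGCG, a YY1 motif, in 2 (4.26%) against 2.59%. CCAAT itself was in 19 of 47 (40.4%) against 38.2%. These are matches of letters in a window and no binding of these factors was measured.

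A longer list of other spliceosome and snRNP assembly genes gave the wider view of the pathway. All of them had an H3K4me3-ChIP peak, and by the same distance rule 10 had an NF-Y-ChIP summit and 91 had none. The share was 9.90% (exact 95% interval 4.85 to 17.5%), and the 5.03% of marked genes lies inside the interval. The interval also overlaps that of the 48 genes. The strongest were Cwc15 (14.3-fold, rank 54) and Xab2 (13.6-fold, rank 60), whose products sit in the core of the activated spliceosome, and Ppwd1 (12.9-fold, rank 73), a spliceosomal prolyl isomerase. All 3 exceeded the Sf1 peak, as did Lsm1 with 8.34-fold, whose product replaces Lsm8 in the cytoplasmic ring that acts in mRNA decay. Ik and the kinase gene Prpf4b had 5.96-fold each, Prpf38b 5.56-fold and Prpf40b 5.25-fold. All 8 of these genes were above the Sf3b2 and Srsf5 peaks.

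Of these 8 genes, 6 shared the promoter with a protein-coding gene on the opposite strand. In 5 of them the summit was nearer to the partner. It lay 54 bp upstream of Kdm4d and 81 bp upstream of Cwc15, 43 bp upstream of Pet100 and 189 bp upstream of Xab2, 44 bp upstream of Cenpk and 68 bp upstream of Ppwd1, 31 bp upstream of Bag4 and 59 bp upstream of Lsm1, and 16 bp downstream of the start of Ndufa2 and 115 bp upstream of Ik. The summit at Prpf40b lay 35 bp upstream of that gene and 684 bp downstream of the start of Fam186b. For these pairs the position of the summit does not tell which gene it belongs to. Motifs under 4 of the strongest peaks are shown for comparison with Sf1, Sf3b2 and Srsf5, on the strand of the spliceosome gene.
Cwc15 chr9:14500478-14500506, plus strand: gtgtctttgctgATTGGtcactgcgtcag
Xab2 chr8:3621486-3621532, minus strand: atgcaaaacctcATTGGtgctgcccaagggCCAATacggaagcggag
Ppwd1 chr13:104228889-104228942, minus strand: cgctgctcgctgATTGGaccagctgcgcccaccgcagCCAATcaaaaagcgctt
Lsm1 chr8:25785233-25785261, plus strand: cgggaggccgctATTGGcgagcggcggag
Xab2 and Ppwd1 held a pair of motifs in opposite orientation within the shown stretch, 2 within 50 bp of the summit, where Cwc15, Lsm1, Sf3b2 and Srsf5 held 1.

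Against 2 neighbouring gene families of RNA metabolism, the hnRNP genes had a summit in 5 of 20 (25%, exact 95% interval 8.66 to 49.1%), and the 5.03% of all marked genes lies below that interval. With only peaks above the median fold enrichment, 1 of the 20 hnRNP genes had a summit (5%), against 2.65% of marked genes. The cytosolic ribosomal protein genes, of which 78 of 82 were marked, had one in 2 of 82 (2.44%, 0.297 to 8.53%), an interval that includes the 5.03%. The intervals of both overlap that of the 48 spliceosome and SR protein genes.

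**Figure D4:**
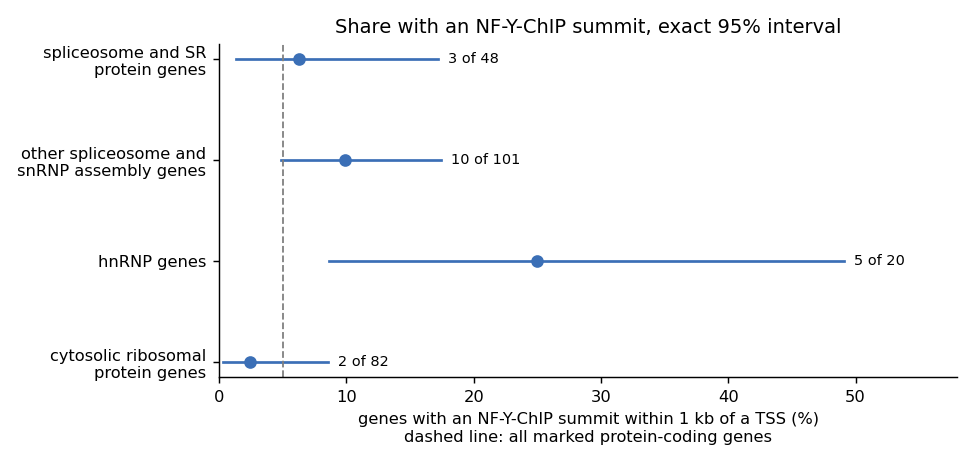
Share of genes, in %, for which an NF-Y-ChIP summit was at most 1 kb from a TSS, with exact 95% intervals (bars), for the 48 members and 3 other lists. The dashed line is the 5.03% of all marked protein-coding genes, and the interval of the 48 genes, from 1.31 to 17.2%, spans it.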

How the data were processed

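The series holds ChIP-seq of E13.5 mouse cortices with 3 libraries (input, NF-Y-ChIP and H3K4me3-ChIP, 1 each), and the peak lists of both ChIPs were used. Per the authors' methods, reads went through Trimmomatic and were mapped on mm10 by Bowtie 2 (version 2.2.8 in the submitters' processing notes), and MACS2 (2.1.2) called the peaks, with p under 0.001 for NF-Y-ChIP and q under 0.05 for H3K4me3-ChIP. The authors name the input as the negative control of the ChIP, but their account of peak calling does not say whether MACS2 was given it as control. In the authors' lists the deposited fold enrichment is a ratio, in which MACS2 divides the pileup at a summit by its local background, the deposited score is a scaled p-value or q-value, and p-values and q-values are given as deposited −log10 values. The lists hold no read counts, so depth is unknown and every count depends on the depth at which peaks were called. The list of each antibody was recognised from its score, which followed the p-value in all 733 peaks of one list and the q-value in all 18816 peaks of the other. The number of peaks helped to identify the NF-Y-ChIP list only, and the H3K4me3-ChIP list differs in its number of peaks from the authors' account.

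TSSs were the 5′ ends of all GENCODE M21 transcripts. A gene was counted for NF-Y-ChIP when a summit, and for H3K4me3-ChIP when any base of a peak, lay within 1 kb of a TSS, and the strongest such H3K4me3-ChIP peak gave its value. Promoter windows ran from 250 bp upstream to 50 bp downstream of the 5′ end of the gene, and CCAAT and ATTGG were searched on both strands of the RefSeq copy of GRCm38. Intervals are exact binomial (Clopper-Pearson) intervals at the 95% level and cover counting error only. The members and the gene lists were chosen with earlier results of these data known. Genes named are those with an NF-Y-ChIP summit and the genes that start beside it, those without an H3K4me3-ChIP peak, the highest and lowest of each class, those with repeated CCAAT boxes, and the remaining members for their values. Some genes of the longer spliceosome list are counted but not reported here by name. No p-value across genes was computed. The steps were tested on simulated data. Scripts ran in Python 3.11.15 with pysam 0.24.0 for sequence, pandas 2.3.3 and NumPy 2.4.6 for tables, SciPy 1.17.1 for intervals and matplotlib 3.10.9 for plots.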

Additional observations from a re-analysis of the deposited data

How the results depend on the processing

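Of 55 alternatives, 47 kept their result within 1.5 times the main count or within the interval of the median, and 8 did not. With only the NF-Y-ChIP peaks above the median fold enrichment, 1 of the 48 genes (Sf1) kept a summit, against 2.65% of marked genes, and so did 4 of the other spliceosome and snRNP assembly genes, 1 hnRNP gene and 0 ribosomal protein genes. With q under 0.05, 2 genes (Sf1 and Sf3b2) kept one, against 4.87%. The longer motif gave 0 of 3 peaks at these genes, and in the promoter window 4 of 44 genes without a summit (9.09%, against 12.1% of marked genes). A window from 150 bp upstream to the 5′ end gave 11 such genes (25%, against 24.9% of marked genes), and one from 500 bp upstream to 100 bp downstream gave 27 (61.4%, against 53.9%). Here the number changes with the length searched. The alternatives for the hnRNP and ribosomal protein genes, the RefSeq windows and the widths of the SR class were added after seeing the data. No paired analysis was possible because each antibody has 1 library. The number of libraries limits every value, and peaks below the calling threshold are not in the lists.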
